A study of Mus musculus with 3 samples.

Results

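The genes examined were 10 loci of transcription factors, and of inhibitors of such factors, that steer early B-cell development: Pax5, Ebf1, Tcf3, Tcf4, Tcf12, Foxo1, Lef1, Id2, Id3 and Bach2. They were chosen by name. For each gene, every ATAC-seq peak overlapping the gene body or the 50 kb on either side of it was taken from 4 peak lists. Peaks of the 4 lists that overlapped were merged into regions, which gave 146 regions at the 10 genes out of 50965 regions in the genome. No region lay in more than 1 of the 10 windows.

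In early B-cell development the E proteins, encoded by Tcf3 (E2A), Tcf12 (HEB) and Tcf4 (E2-2), bind E-box sequences as dimers and act with EBF1 and FOXO1 to switch on the B-lineage programme. EBF1 in turn activates Pax5, whose product holds cells in the B lineage and shuts off genes of other lineages. The inhibitors ID2 and ID3 have no DNA-binding domain and capture E proteins in inactive dimers. LEF1 is an HMG-box factor of pro-B-cells that can act with Wnt signals, and BACH2 is a repressor that acts at the pre-B-cell checkpoint. Many such genes are controlled by enhancers inside their introns or in the DNA around them, and open chromatin marks candidate elements of this kind.

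ATAC-seq, which maps accessible DNA by the insertion of sequencing adapters with a transposase, was done on mouse pre/pro-B-cell lines. Bone marrow cells had been transformed by retroviral transduction with BCR-ABL(p185), the fusion kinase of acute lymphoid leukaemia, so all lines carry this oncogene. The donor mice were homozygous for wildtype Cdk6 (labelled Cdk6_WT, here Cdk6+/+) or for the K43M allele, whose kinase is inactive (labelled Cdk6_K43M, here Cdk6KM/KM), and CDK6 is a cell cycle kinase that also acts on transcription. There were 2 lines per genotype and 1 library per line. The age of the mice, the time in culture and whether a line was 1 clone are not given in the sources used here. Of the 4 lists, 3 belong to labelled samples (Cdk6+/+ replicate 2, Cdk6KM/KM replicate 1 and Cdk6KM/KM replicate 2). The other list, called Cdk6+/+ unnumbered, has no labelled sample and was put with Cdk6+/+ from the design text of the series. Values of the 4 lists are given in the order Cdk6+/+ unnumbered, Cdk6+/+ replicate 2, Cdk6KM/KM replicate 1, Cdk6KM/KM replicate 2.

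The lists held 33038 to 39038 peaks, with median summit pileups of 22 to 26 read ends and genome backgrounds of 48.4 to 65.3 read ends per 10 kb, so a peak at these depths rested on few reads, and a site without a peak may have been open below what these depths could detect. The lowest summit pileup of any peak was 7 read ends in Cdk6+/+ unnumbered and 6 in each of the other lists. The labelled cell type was checked at promoters. Of 6 B-lineage markers, 5 had a promoter peak in all lists and the remaining one, Cd79b, in 3. Of 6 T-lineage markers, Gata3 and Lck had one in all lists and Cd3e, Cd3g, Bcl11b and Cd4 in none. Of 6 myeloid markers none had a promoter peak in any list, and of 6 erythroid and megakaryocytic markers only Itga2b had one, in 3 lists.

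A peak in all 4 lists was found at 61 of the 146 regions (41.8%, 95% Wilson interval 34.1 to 49.9, counting error only), beside 41.2% of all regions in the genome. Regions with a peak in both Cdk6+/+ lists and in neither Cdk6KM/KM list numbered 6 (4.11%, beside 4.51% of all regions). Regions with a peak in both Cdk6KM/KM lists and in neither Cdk6+/+ list numbered 10 (6.85%, beside 7.64% of all regions). Both shares were near the background. The remaining 69 regions had other patterns, 37 of them with a peak in 1 list alone. The density of regions was 5.28 per 100 kb in the 10 windows together, beside a median of 3.60 and quartiles of 1.07 and 6.25 over the windows of 21951 protein-coding genes.

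**Figure D1:**
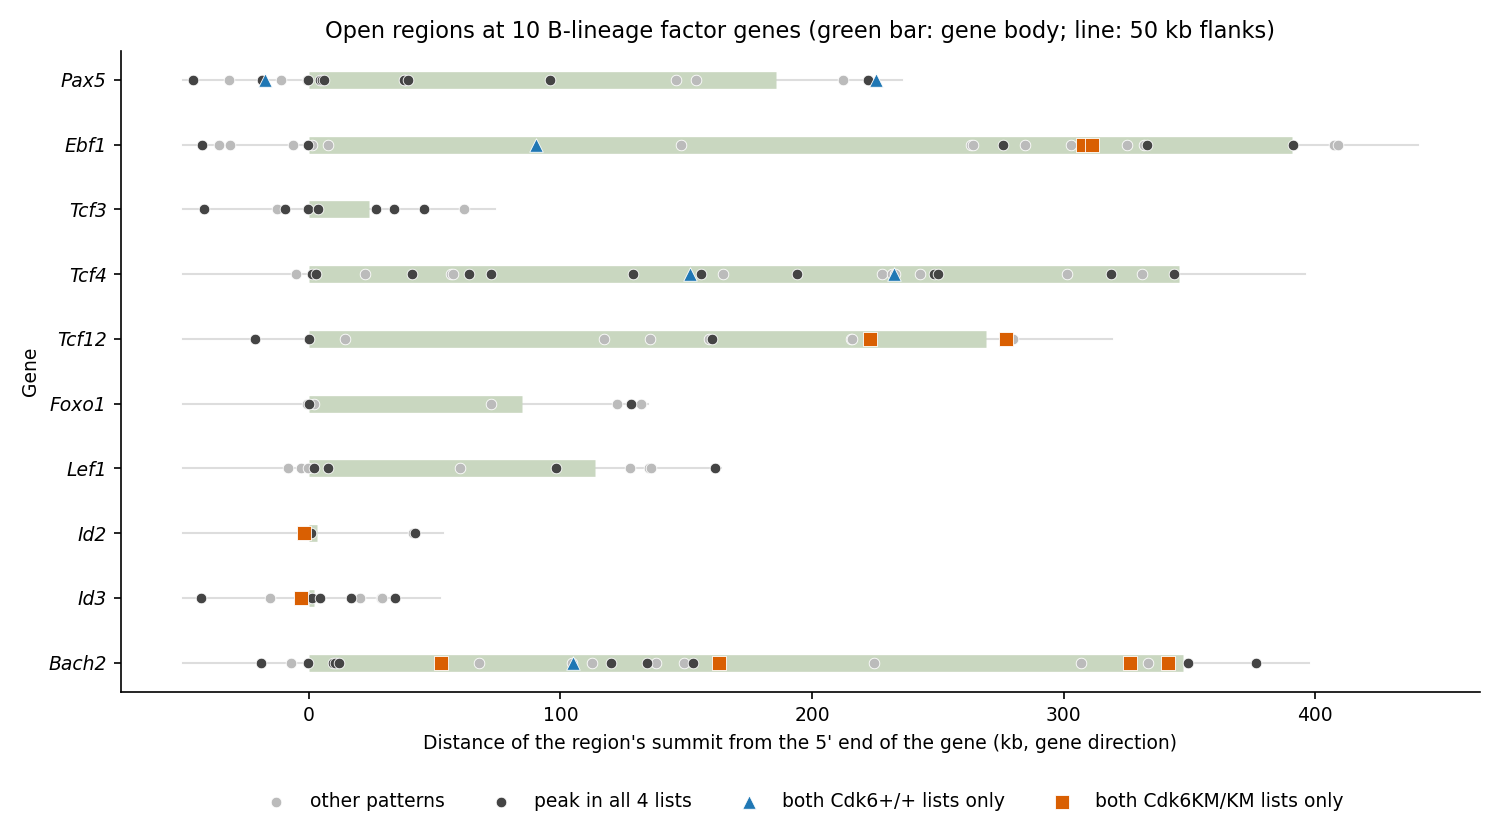
Each point is 1 open region, placed by the distance of its summit from the 5′ end of the gene in kb along the gene's direction, with 1 row per gene, a bar for the gene body and a line for the 50 kb flanks. Dark circles mark the 61 regions found in all 4 lists, triangles the 6 found in both Cdk6+/+ lists only, squares the 10 found in both Cdk6KM/KM lists only and pale circles the 69 others; 4 of the 10 squares lie at Bach2.

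By place, 27 regions overlapped a promoter window of the gene itself (2000 bp before to 200 bp after an annotated start) and 14 a promoter window of another gene. Of the own-promoter regions 19 had a peak in all lists. Taking both kinds of promoter window together, 27 of 41 regions did (65.85%, beside 65.77% of all regions at promoter windows in the genome). Outside every promoter window lay 105 regions, the candidate enhancers: 63 in introns, 3 over exons, 18 in the upstream flanks and 21 in the downstream flanks. Of these 34 had a peak in all lists (32.4%, beside 29.1% of all regions outside promoters). The Cdk6+/+-only count outside promoters was 6 of 105, where the background share was 5.67%, and the Cdk6KM/KM-only count was 9 of 105, where it was 8.62%. Promoter and enhancer regions differed in base composition. A CpG-rich sequence (over 50% GC and a ratio of observed to expected CpG over 0.6 within 500 bp of the summit) was found at 22 of 41 regions at promoter windows and at 4 of 105 outside them. The same shares over the genome were 51.7% and 1.69%.

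Shared candidate enhancers were ranked within each gene by confidence of the call, that is by the lowest of a region's 4 percentiles of -log10 q within the lists, which need not follow the fold enrichment. The highest-ranked ones at Pax5, Ebf1, Tcf12 and Lef1 are printed here to show elements that were open in every list, each as the 201 bases around the summit, on the plus strand of GRCm38. Capitals mark matches to 1 of the searched motifs: EBF (TCCCNNGGG), the E-boxes CAGGTG and CAGCTG bound by E proteins, FOXO (TGTTTAC), LEF/TCF (CTTTGAA), BACH/AP-1 (TGAGTCA), RUNX (TGTGGTT), STAT (TTCNNNGAA) and ETS (CCGGAAGT), on either strand. Ebf1 region 12 and Tcf12 region 1 hold an E-box, Lef1 region 7 a RUNX motif, and Pax5 region 13, which is crossed by a CT repeat, none of these letters.
Pax5 region 13, chr4:44671060-44671260: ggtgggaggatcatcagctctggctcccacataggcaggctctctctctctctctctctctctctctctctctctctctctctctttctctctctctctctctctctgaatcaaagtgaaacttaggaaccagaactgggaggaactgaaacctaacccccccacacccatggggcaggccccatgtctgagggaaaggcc
Ebf1 region 12, chr11:44893074-44893274: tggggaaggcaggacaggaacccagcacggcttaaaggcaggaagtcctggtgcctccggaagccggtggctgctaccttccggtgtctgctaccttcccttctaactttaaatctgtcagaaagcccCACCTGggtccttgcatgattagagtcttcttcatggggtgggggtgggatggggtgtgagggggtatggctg
Tcf12 region 1, chr9:72133146-72133346: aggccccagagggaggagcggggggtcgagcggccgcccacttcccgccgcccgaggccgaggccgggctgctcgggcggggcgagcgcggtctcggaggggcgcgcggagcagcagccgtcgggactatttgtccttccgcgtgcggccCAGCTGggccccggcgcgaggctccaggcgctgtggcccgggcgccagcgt
Lef1 region 7, chr3:131208595-131208795: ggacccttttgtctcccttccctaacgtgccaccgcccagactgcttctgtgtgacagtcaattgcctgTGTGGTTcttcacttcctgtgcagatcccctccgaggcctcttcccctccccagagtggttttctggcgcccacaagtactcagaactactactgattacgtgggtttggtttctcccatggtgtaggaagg

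The promoters of Foxo1 and of Pax5, the factor that commits cells to the B lineage, are given as the 250 bases before the RefSeq start (GRCm38.p6), 5′ to 3′ along the gene, since both lay in regions open in all lists. The Foxo1 promoter holds an EBF motif in capitals, read on both strands with an offset of 1 base, and the Pax5 promoter holds none of the searched motifs.
Foxo1 promoter, chr3:52268087-52268336: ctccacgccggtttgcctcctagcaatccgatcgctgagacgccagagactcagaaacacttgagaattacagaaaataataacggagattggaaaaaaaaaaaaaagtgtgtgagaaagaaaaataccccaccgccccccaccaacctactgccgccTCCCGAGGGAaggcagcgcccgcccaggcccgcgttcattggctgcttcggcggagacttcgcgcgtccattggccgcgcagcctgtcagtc
Pax5 promoter, chr4:44710695-44710944: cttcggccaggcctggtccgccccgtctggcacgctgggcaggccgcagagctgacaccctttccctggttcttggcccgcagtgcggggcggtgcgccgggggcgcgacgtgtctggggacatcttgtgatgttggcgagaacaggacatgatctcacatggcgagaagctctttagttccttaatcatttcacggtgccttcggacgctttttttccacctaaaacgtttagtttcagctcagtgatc

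The number of peaks per list in the 10 windows was 97, 108, 114 and 104. The mean was 102.5 ± 7.78 for Cdk6+/+ and 109.0 ± 7.07 for Cdk6KM/KM (SD, n = 2), a difference of 6.5 peaks with overlapping groups (exact permutation test, two-sided p = 0.667, where 0.33 is the smallest p that 2 against 2 lists allow). With the same number of peaks taken from each list the difference was 1, and it was 1 without Cdk6+/+ unnumbered, 12 without Cdk6+/+ replicate 2, 1.5 without Cdk6KM/KM replicate 1 and 11.5 without Cdk6KM/KM replicate 2. At Bach2 the lists held 13, 17, 23 and 17 peaks. At Tcf12 they held 4, 9, 10 and 7, and at Lef1 7, 7, 12 and 7. Cdk6KM/KM replicate 1, the longest list, was the highest of the 4 at these 3 genes. At Id3 every list held 9 peaks.

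**Figure D2:**
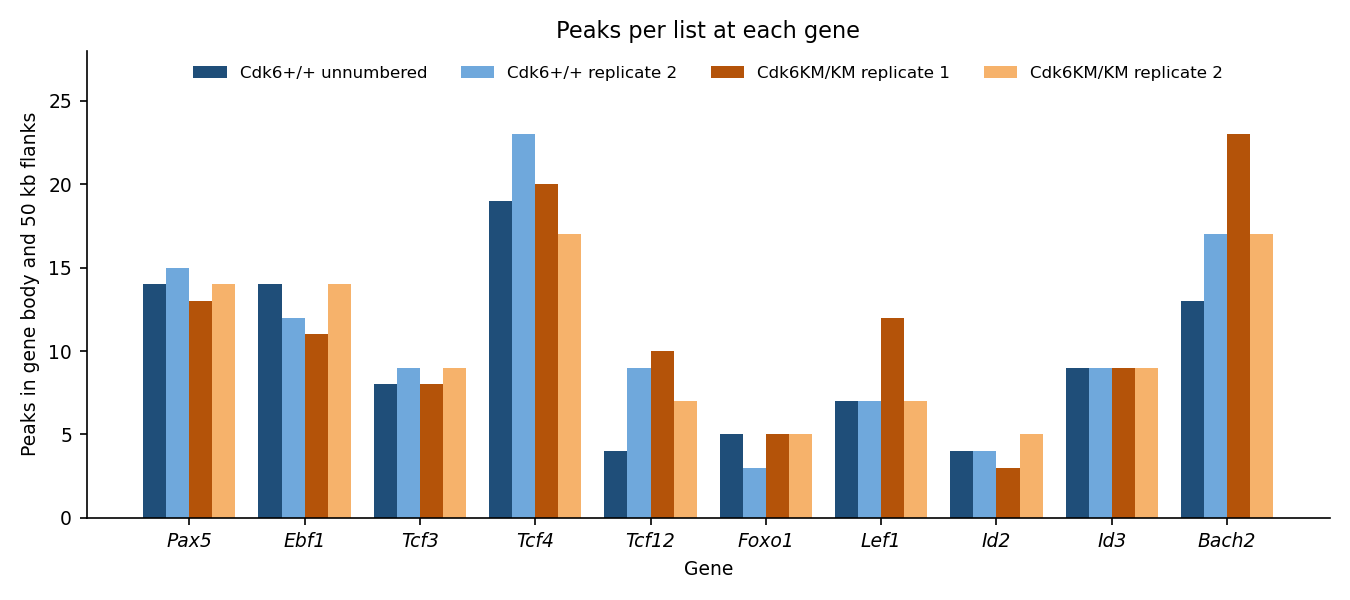
Bars give the number of peaks of each list (y axis, from 0) in the gene body and 50 kb flanks of each of the 10 genes (x axis), with 1 bar per list. Tcf4 and Bach2 reach 23 peaks in 1 list each and the counts of the genotypes overlap or touch at every gene.

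The overlap of open bases at these loci was higher between lists of the same genotype, in a design of 2 lines each that cannot reach a small p. The Jaccard index in bases was 0.625 between the Cdk6+/+ lists and 0.648 between the Cdk6KM/KM lists, and 0.548 to 0.594 between genotypes. The mean within genotypes exceeded that between them by 0.0641 (exact one-sided permutation test over 3 pairings, p = 0.33, the smallest possible). These tests measure only the spread between single lines of each genotype. No index over the whole genome stands beside these values, so a trait of these loci cannot be told apart from one of the lists as a whole.

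All 10 genes had a promoter peak in all 4 lists, beside 47.6% of protein-coding genes. Of 43 clusters of annotated starts of the 10 genes, 18 had a peak in all lists, 22 in none and 3 in some lists. In ATAC-seq of a cell population, a larger share of cells or alleles that are open and a wider opening of each cannot be told apart. Fold enrichment below is the deposited ratio of the pileup at a peak's summit to the local background of the same list, with a pseudocount in both terms.

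**Figure D3:**
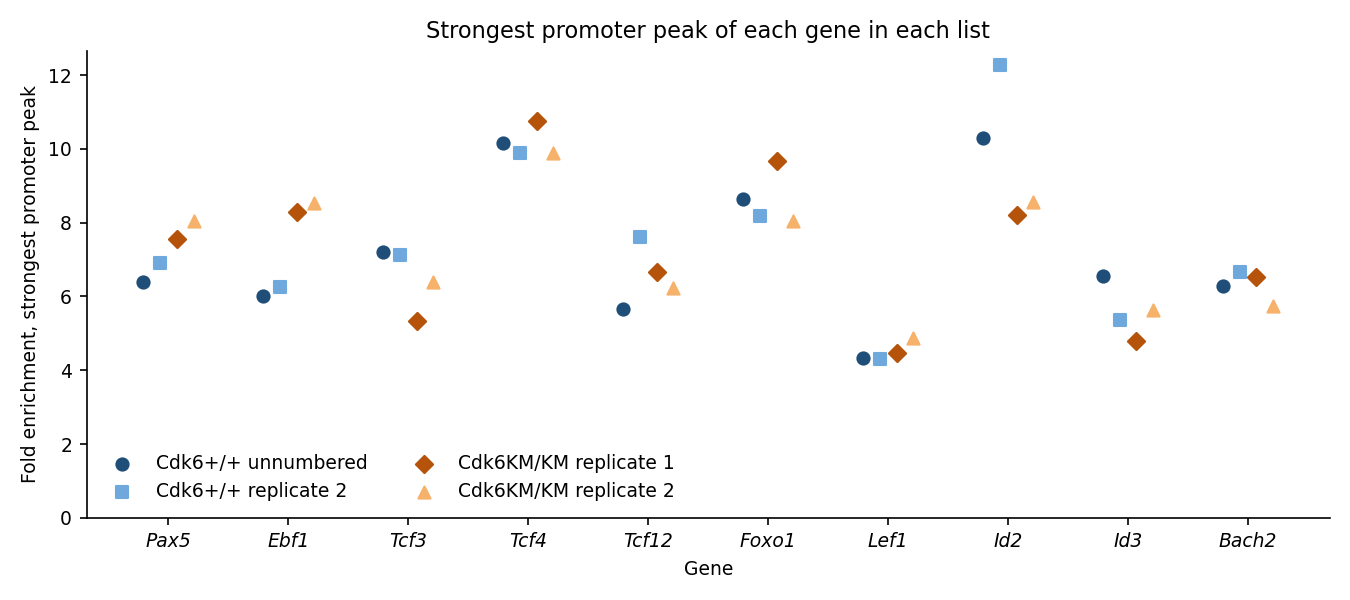
Each point is the fold enrichment (y axis, from 0) of the strongest promoter peak of a gene (x axis) in 1 list. All values are above 4, with the lowest at Lef1 (4.31 to 4.87). Id2 (8.21 to 12.3) is the highest in both Cdk6+/+ lists, and Tcf4 (10.8 and 9.87) in both Cdk6KM/KM lists. The 2 Cdk6KM/KM lists lie above both Cdk6+/+ lists at Pax5, Ebf1 and Lef1 and below both at Tcf3 and Id2. At Lef1 the nearest values of the genotypes are 4.33 and 4.47. The points are not centred, and the strongest peak of a gene can lie in different regions in different lists, as at Tcf12. Shares over the genome are known region by region, with values centred on the median of each list. On that scale 21.3% of all regions with a peak in all 4 lists lie above and 21.0% below, and the genotypes overlap at Lef1 region 4.

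The E-protein gene Tcf3 (chr10:80409514-80433647) had 9 regions, 7 of them in all lists. Its promoter peak, Tcf3 region 4, had fold enrichments of 7.21, 7.11, 5.34 and 6.39, lower in both Cdk6KM/KM lists. The highest-ranked shared candidate enhancer was Tcf3 region 3, 9.5 kb upstream (chr10:80442986-80443426), with values of 6.64, 8.96, 9.69 and 8.73. Tcf3 region 5, an intronic region 3.6 kb past the 5′ end, had 3.74, 4.14, 5.09 and 4.72. No region of Tcf3 was found in both lists of 1 genotype only, and 5 of its 9 regions lay at promoters of neighbouring genes, among them Mbd3, Uqcr11 and Mex3d.

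Tcf12 (chr9:71842688-72111871), the gene of the E protein HEB, had 12 regions, 3 of them in all lists. The region at its main promoter, Tcf12 region 2, had fold enrichments of 5.66, 5.88, 6.44 and 6.22, higher in both Cdk6KM/KM lists. A cluster of starts 215.5 kb further along had a peak in Cdk6+/+ replicate 2 (Tcf12 region 9, 7.60) and in Cdk6KM/KM replicate 1 (Tcf12 region 8, 6.66) and in neither of the other lists. The highest-ranked shared region outside promoters was Tcf12 region 1, 21.4 kb upstream (chr9:72132772-72133855), with 9.39, 9.93, 13.1 and 9.48. The intronic Tcf12 region 7 had 5.56, 8.68, 5.96 and 7.45. Open in both Cdk6KM/KM lists only were Tcf12 region 10 in an intron (8.18 and 6.10) and Tcf12 region 11 in the downstream flank (6.25 and 3.79), whose weaker peak stood at percentile 2.01 of its list by -log10 q.

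Tcf4 (chr18:69343356-69689079), the gene of the E protein E2-2, had the most regions, 26, with 12 in all lists. Its annotated starts formed 14 clusters, of which 6 had a peak in all lists. The strongest promoter peaks were at Tcf4 region 10, by an internal start 72.5 kb from the 5′ end (10.2, 9.89, 10.8 and 8.01), and at Tcf4 region 2 near the 5′ end (8.25, 8.57, 7.93 and 9.87). Tcf4 regions 4, 21 and 22, also at promoters, had values between 3.69 and 6.31 in all lists, and Tcf4 region 3 had a peak in Cdk6KM/KM replicate 1 alone (3.21). Tcf4 region 13, at a start 156.0 kb along the gene, had 6.52, 6.79, 8.79 and 8.87, higher in both Cdk6KM/KM lists.

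At Tcf4 the highest-ranked shared candidate enhancers were the intronic Tcf4 region 11, 128.9 kb along (11.3, 10.8, 9.43 and 10.3), and Tcf4 region 24 (7.60, 9.75, 8.50 and 6.81). The intronic Tcf4 region 12 (5.21 and 5.98) and Tcf4 region 18 (5.70 and 4.33) were open in both Cdk6+/+ lists only. On chromosome 18 as a whole 8.98% of regions were Cdk6+/+-only, and the local background of shared regions there, relative to the autosomal median of each list, was 0.24 and 0.28 on the log2 scale in the Cdk6+/+ lists and -0.16 and -0.20 in the Cdk6KM/KM lists. The shared regions of Tcf4 itself had 0.612 and 0.525 in the Cdk6+/+ lists and 0.524 and 0.189 in the Cdk6KM/KM lists. The part of either in the Tcf4 values was not tested.

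Ebf1 (chr11:44617317-45008091), which encodes the pioneer factor that opens B-lineage chromatin, had 22 regions spread over a gene body of 390.8 kb, with 5 in all lists and 14 in other patterns. Its promoter, Ebf1 region 5 (chr11:44616851-44617566), had fold enrichments of 6.01, 6.25, 8.28 and 8.54. Both Cdk6KM/KM lists were higher, also in summit pileup, which was 33, 34, 53 and 47 read ends. Ebf1 region 6, next to it, had a peak in Cdk6+/+ unnumbered alone (3.15). By the rank of the call, the first shared candidate enhancers were the intronic Ebf1 region 12, 275.9 kb along (10.7, 7.33, 6.55 and 7.69), and Ebf1 region 20 over an exon at the 3′ end of the gene (7.37, 11.6, 7.55 and 7.66). The genotypes overlapped at both.

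In the upstream flank, the shared Ebf1 region 1 (chr11:44574722-44575243), 42.3 kb before the gene, had fold enrichments of 6.50, 9.84, 10.9 and 15.7 and summit pileups of 14, 20, 22 and 40 read ends. Both Cdk6KM/KM lists were above both Cdk6+/+ lists, although Cdk6+/+ replicate 2 and Cdk6KM/KM replicate 1 lay close together. Open in both Cdk6KM/KM lists only were the neighbouring intronic Ebf1 region 15 (5.33 and 5.56) and Ebf1 region 16, 311.3 kb along (7.93 and 7.90). Ebf1 region 8, open in both Cdk6+/+ lists only (5.64 and 4.22), rested on summit pileups of 12 and 8 read ends.

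Foxo1 (chr3:52268336-52353221), whose product drives Il7r and the Rag genes in pro-B-cells, had 7 regions, 2 of them in all lists. Its promoter, Foxo1 region 2, was among the most enriched, at 8.64, 8.18, 9.66 and 8.04. Foxo1 region 1, further upstream in the promoter window, had a peak in Cdk6+/+ unnumbered alone (3.24). The only shared region outside promoters was Foxo1 region 6, 128.2 kb past the 5′ end in the downstream flank, with 5.0, 4.32, 4.55 and 5.17. The genotypes overlapped at both shared regions, and no region was open in both lists of 1 genotype only.

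Pax5 (chr4:44524757-44710487) had 19 regions, 10 of them in all lists. Of its 4 clusters of starts, the 2 nearest the 5′ end had a promoter peak in all lists and the other 2 in none. At the upstream cluster, Pax5 region 7 had fold enrichments of 4.35, 3.55, 4.75 and 3.72, and Pax5 region 6 had a peak in Cdk6KM/KM replicate 1 alone (3.33). At the cluster 6.5 kb downstream, Pax5 region 10 had 6.39, 6.92, 7.57 and 8.04, higher in both Cdk6KM/KM lists, and Pax5 regions 8 and 9 had values from 3.28 to 4.76. The downstream promoter was thus the more enriched of the pair in every list.

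At Pax5 the highest-ranked shared candidate enhancers were in introns, Pax5 region 13 at 39.3 kb (chr4:44670986-44671876; 6.90, 7.86, 5.81 and 6.93) and Pax5 region 14 at 96.0 kb (7.67, 7.10, 7.57 and 10.1). The genotypes overlapped at both. Open in both Cdk6+/+ lists only was Pax5 region 4, 17.3 kb upstream (chr4:44727571-44727939), with 8.0 and 8.45 and summit pileups of 23 read ends in each list. A peak of Cdk6KM/KM replicate 2 lay 828 bp away, in Pax5 region 3, which was open in all lists (5.71, 5.52, 7.20 and 5.51). The other Cdk6+/+-only region, Pax5 region 19 in the downstream flank, was weak (4.58 and 4.33).

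Lef1 (chr3:131110471-131224356) had 11 regions, 4 of them in all lists, and none open in both lists of 1 genotype only. Its most 5′ start had a weak peak, Lef1 region 3, in every list except Cdk6+/+ unnumbered (2.69, 2.99 and 2.88), and the starts 2.3 and 3.3 kb downstream had Lef1 region 4 in all lists (4.33, 4.31, 4.47 and 4.87). By fold enrichment the shared intronic regions stood above the promoter regions. Summit pileups did not follow this order. They were 50, 31, 47 and 40 read ends at Lef1 region 4, 42, 26, 40 and 31 at Lef1 region 5, and 40, 51, 49 and 33 at Lef1 region 7. The local background was 539, 321, 487 and 371 read ends per 10 kb at Lef1 region 4. At Lef1 region 5 it was 152, 110, 169 and 114. Lef1 region 7 (chr3:131208205-131208941), 98.2 kb along, reached 12.4, 15.8, 14.2 and 10.5, and Lef1 region 5, 7.5 kb along, 10.6, 8.44, 9.36 and 9.76. The genotypes overlapped at both.

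Among the inhibitors, Id2 (chr12:25093799-25097140) had 4 regions. Its promoter, Id2 region 2 (chr12:25095898-25096861), had fold enrichments of 10.3, 12.3, 8.21 and 8.57, lower in both Cdk6KM/KM lists. The summit pileups were 63, 62, 66 and 53 read ends and the local backgrounds 261, 207, 358 and 265 read ends per 10 kb, so the pileups overlapped between genotypes while the ratio did not. Id2 region 1 (chr12:25098799-25099045), 1.8 kb upstream within the promoter window of the first start, was open in both Cdk6KM/KM lists only (4.44 and 4.67) and was the only such region at a promoter of the 10 genes. Among the 41 regions at promoter windows of any gene this pattern made up 2.44%, beside 5.67% of all such regions in the genome. Shared regions of chromosome 12 as a whole had local backgrounds of -0.01 and -0.01 in the Cdk6+/+ lists and -0.34 and -0.22 in the Cdk6KM/KM lists on the same log2 scale as above. The shared regions of Id2 went the other way, with -0.102 and -0.235 in the Cdk6+/+ lists and 0.234 and 0.089 in the Cdk6KM/KM lists. The part of either in the Id2 fold enrichments was not tested. In the downstream flank, Id2 region 4 was open in all lists (7.86, 9.66, 8.59 and 10.6).

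Id3 (chr4:136143497-136145755), with 11 regions of which 6 were in all lists, had promoter peaks at Id3 region 4 (6.55, 5.35, 4.79 and 5.63) and Id3 region 5 (3.60, 3.85, 4.33 and 3.76). Downstream of the gene, Id3 region 6 at 4.4 kb (6.76, 7.62, 6.10 and 6.03) and Id3 region 11 at 34.4 kb (8.28, 6.67, 6.94 and 7.30) were the highest-ranked shared regions. At Id3 region 6 both Cdk6KM/KM lists were lower. Id3 region 3 (chr4:136140325-136140612), 3.0 kb upstream, was open in both Cdk6KM/KM lists only, with fold enrichments of 5.41 and 5.94 on summit pileups of 52 and 45 read ends.

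Bach2 (chr4:32238804-32586108) had 25 regions, 10 of them in all lists. Of its 25 regions 4 were Cdk6KM/KM-only, beside 8.75% of all regions on chromosome 4, the highest such share among the chromosomes of the 10 genes. Its promoter, Bach2 region 3, had fold enrichments of 6.30, 6.68, 6.53 and 5.78, with overlapping genotypes. By the rank of the call, the first shared candidate enhancers were the intronic Bach2 region 13 at 120.0 kb (chr4:32358586-32359787; 10.2, 9.24, 9.12 and 8.09) and Bach2 region 4 at 9.7 kb (4.39, 4.56, 5.33 and 5.32).

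Of the Cdk6KM/KM-only regions at Bach2, region 18 in an intron at 162.9 kb (chr4:32401354-32401854) was the most enriched at 11.9 and 10.2. Bach2 region 23, over an exon at 341.3 kb (chr4:32579924-32580474), had 11.7 and 8.47, and Bach2 region 8 in an intron at 52.7 kb (chr4:32291355-32291907) had 8.04 and 9.17. The nearest Cdk6+/+ peaks were 9770, 7685 and 40124 bp away. The remaining one, Bach2 region 21, had 5.31 and 7.44. Open in both Cdk6+/+ lists only was Bach2 region 11 at 105.2 kb (4.77 and 5.64), which stood at percentile 6.97 in its weaker list.

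**Figure D4:**
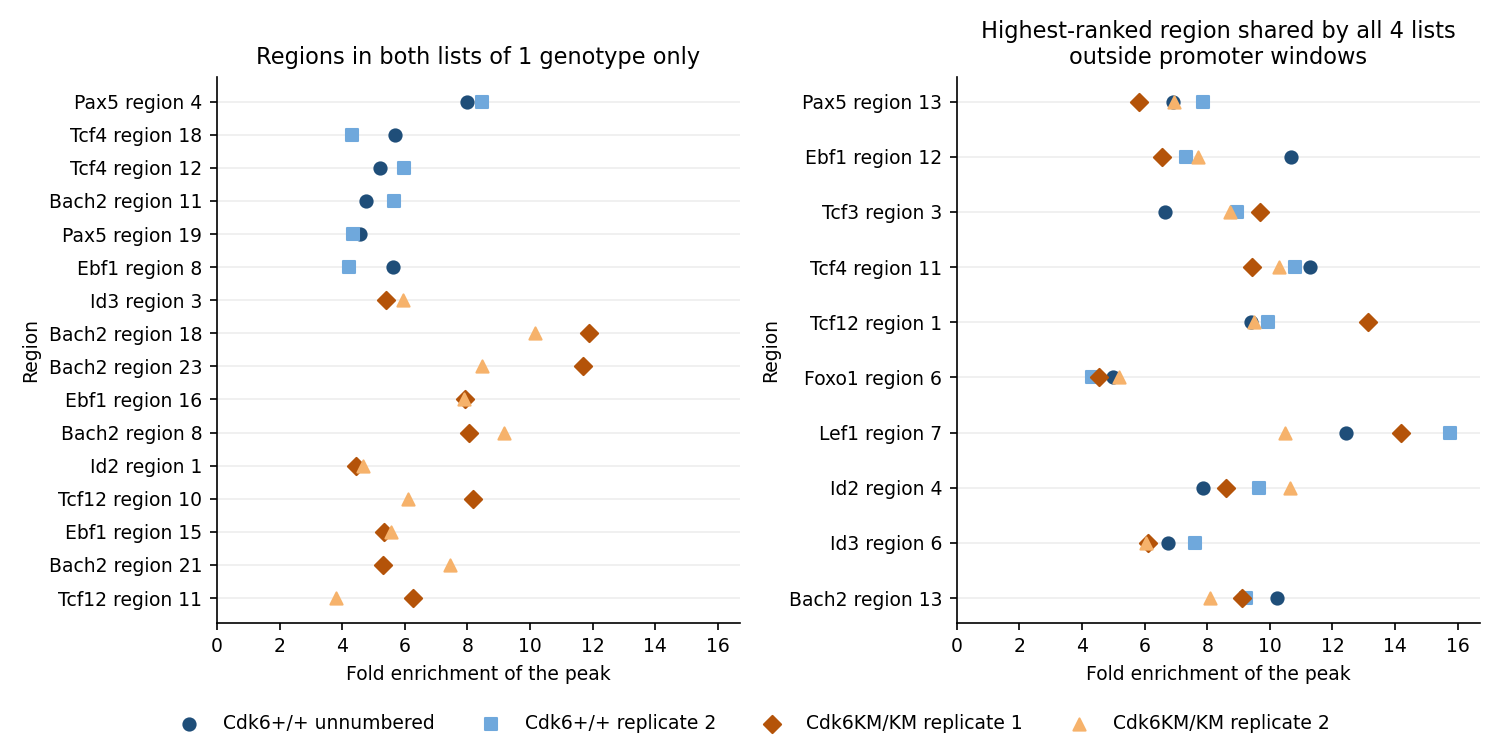
Points give the fold enrichment (x axis, from 0) of a region's strongest peak in each list, with regions on the y axis: on the left the 16 regions open in both lists of 1 genotype only, where a list without a point had no peak, and on the right the highest-ranked region shared by all 4 lists outside promoter windows at each gene. The Cdk6KM/KM-only Bach2 regions 18 and 23 reach 11.9 and 11.7, and the shared Lef1 region 7 reaches 15.8.

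The 6 genotype-only regions printed here had the best percentiles by -log10 q in the weaker list, from 49.8 for Bach2 region 8 to 67.7 for Id3 region 3, and are shown with the motifs above in capitals, as 201 bases on the plus strand of GRCm38. An E-box lies in Pax5 region 4, Ebf1 region 16 and Bach2 region 18, EBF and STAT motifs in Bach2 region 23 and a STAT motif in Bach2 region 8. Of all 16 genotype-only regions, 4 held an E-box, beside 30.9% of all regions of any pattern in the genome. STAT motifs lay in Bach2 regions 8, 11 and 23 among the 16, beside 6.79% of all regions. An EBF motif lay in Bach2 region 23 alone, beside 10.1% of all regions.
Pax5 region 4, chr4:44727638-44727838: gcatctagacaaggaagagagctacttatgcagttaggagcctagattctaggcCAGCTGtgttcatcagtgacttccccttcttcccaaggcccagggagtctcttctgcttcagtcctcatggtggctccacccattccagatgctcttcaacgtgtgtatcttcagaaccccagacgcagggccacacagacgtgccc
Id3 region 3, chr4:136140360-136140560: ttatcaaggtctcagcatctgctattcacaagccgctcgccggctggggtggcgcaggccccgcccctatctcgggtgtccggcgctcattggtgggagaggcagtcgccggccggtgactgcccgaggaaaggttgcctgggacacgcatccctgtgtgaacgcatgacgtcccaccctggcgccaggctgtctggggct
Bach2 region 18, chr4:32401609-32401809: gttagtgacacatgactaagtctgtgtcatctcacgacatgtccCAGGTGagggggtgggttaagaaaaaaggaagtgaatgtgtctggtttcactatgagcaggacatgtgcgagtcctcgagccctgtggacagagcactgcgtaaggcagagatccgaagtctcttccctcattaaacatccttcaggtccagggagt
Bach2 region 23, chr4:32580012-32580212: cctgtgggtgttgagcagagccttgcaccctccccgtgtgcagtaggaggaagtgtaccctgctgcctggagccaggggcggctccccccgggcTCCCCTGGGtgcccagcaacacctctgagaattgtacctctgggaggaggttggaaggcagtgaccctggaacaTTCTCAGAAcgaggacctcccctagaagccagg
Ebf1 region 16, chr11:44928524-44928724: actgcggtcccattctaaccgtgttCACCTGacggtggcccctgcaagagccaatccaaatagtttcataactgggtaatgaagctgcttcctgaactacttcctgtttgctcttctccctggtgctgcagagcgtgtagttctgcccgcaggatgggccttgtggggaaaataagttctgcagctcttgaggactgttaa
Bach2 region 8, chr4:32291410-32291610: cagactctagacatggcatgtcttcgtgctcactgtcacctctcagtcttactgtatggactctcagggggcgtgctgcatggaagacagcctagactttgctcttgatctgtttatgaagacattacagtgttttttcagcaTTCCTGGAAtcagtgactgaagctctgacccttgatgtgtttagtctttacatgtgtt

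Sizes were compared at the 61 regions with a value in every list, in a limma fit of log2 fold enrichment over all 21012 such regions of the genome. None of the 61 passed an adjusted p of 0.05 in either direction, where 0.0619% of all regions were higher and 0.0476% lower in Cdk6KM/KM. At an unadjusted p under 0.05 there were 5 higher and 2 lower among the 61, beside 12.2% of all regions in either direction. Both Cdk6KM/KM lists lay above both Cdk6+/+ lists at 14 of the 61 regions, beside 21.3% of all regions, and below both at 13, beside 21.0%. The median difference over the 61 regions was 0.00 (quartiles -0.18 and 0.15), beside quartiles of -0.15 and 0.15 for all regions.

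The largest difference was at Bach2 region 17, an intronic region at 152.6 kb (chr4:32391217-32391659). Its fold enrichments were 4.51, 6.02, 9.39 and 10.1, and its summit pileups 12, 15, 36 and 41 read ends. Both Cdk6KM/KM lists were above both Cdk6+/+ lists in both measures. The difference in log2 fold enrichment was 0.90 ± 0.21 (SE, limma adjusted p = 0.114), and 0.481% of all regions differed by as much or more.

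Further regions that were higher in Cdk6KM/KM without passing the adjusted threshold were Ebf1 region 1 (0.71 ± 0.22, adjusted p = 0.216), Bach2 region 24 (0.61 ± 0.20, adjusted p = 0.223), Ebf1 region 5 (0.46 ± 0.19, adjusted p = 0.356) and Tcf4 region 13 (0.41 ± 0.18, adjusted p = 0.390). At Bach2 region 24, in the downstream flank, the fold enrichments were 5.29, 5.88, 8.56 and 8.42 and the summit pileups 12, 17, 44 and 48 read ends. Without Cdk6+/+ replicate 2, which leaves 1 Cdk6+/+ list assumed to vary like the others, the difference was 1.1 at Bach2 region 17 and 1.0 at Ebf1 region 1. Leaving out each list in turn moved the difference from 0.67 to 1.10 at Bach2 region 17 and from 0.38 to 1.03 at Ebf1 region 1.

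The regions with the smallest p among those lower in Cdk6KM/KM were Id2 region 2 (-0.42 ± 0.16, adjusted p = 0.300), Bach2 region 14 (-0.57 ± 0.24, adjusted p = 0.354), Tcf4 region 15 (-0.43 ± 0.23, adjusted p = 0.473), Bach2 region 1 (-0.32 ± 0.20, adjusted p = 0.584) and Ebf1 region 12 (-0.32 ± 0.22, adjusted p = 0.615). At Bach2 region 14 the fold enrichments were 8.05, 5.42, 4.17 and 4.72, with 1 high value in Cdk6+/+ unnumbered. Bach2 held regions that were higher and regions that were lower in Cdk6KM/KM.

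**Figure D5:**
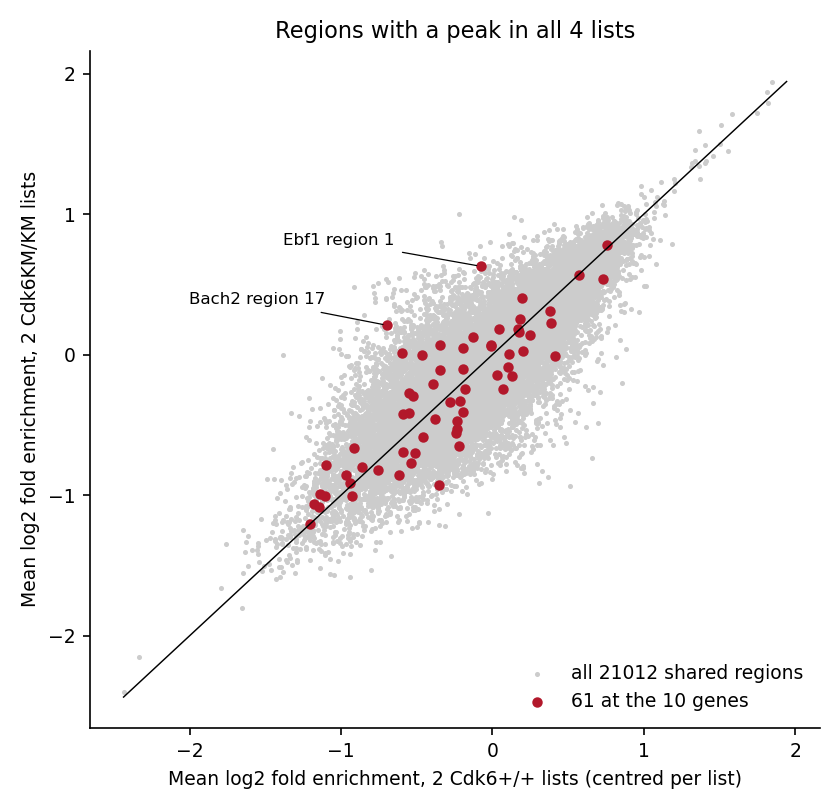
Each point is a region with a peak in all 4 lists, placed by its mean log2 fold enrichment in the 2 Cdk6+/+ lists (x axis) and the 2 Cdk6KM/KM lists (y axis), centred on the median of each list, with the 61 regions of the 10 genes over all 21012 and the line of equal values. Bach2 region 17 and Ebf1 region 1 lie farthest above the line, by 0.90 and 0.71, and other regions of the genome lie farther from it.

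The 201 bases around the summits of the regions with the largest differences, on the plus strand of GRCm38, are printed with motif matches in capitals, which are EBF in both and BACH/AP-1 in Bach2 region 17. The regions with the next largest differences, Bach2 regions 24 and 14 and Ebf1 region 5, held none of the searched motifs, and an EBF match was found in 10.2% of all shared regions.
Bach2 region 17, chr4:32391315-32391515: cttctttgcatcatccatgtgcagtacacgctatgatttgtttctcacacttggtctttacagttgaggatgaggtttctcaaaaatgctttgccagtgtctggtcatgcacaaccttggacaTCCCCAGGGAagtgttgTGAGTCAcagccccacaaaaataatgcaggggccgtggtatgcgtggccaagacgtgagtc
Ebf1 region 1, chr11:44574900-44575100: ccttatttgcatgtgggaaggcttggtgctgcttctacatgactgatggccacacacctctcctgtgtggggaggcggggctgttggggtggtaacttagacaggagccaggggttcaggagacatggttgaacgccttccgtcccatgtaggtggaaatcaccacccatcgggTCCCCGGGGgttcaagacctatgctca

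Motifs of the members' own protein families were counted beside their share over the genome. Among the 61 shared regions an E-box was found in 32.8%, beside 29.4% of all shared regions, and an EBF motif in 9.84%, beside 10.2%. FOXO letters were found in 3.28% (2.37% of all), LEF/TCF in 1.64% (2.77%) and BACH/AP-1 in 8.20% (5.03%). Among motifs of other families, RUNX was found in 13.1% (8.89% of all), ETS in 3.28% (4.44%) and STAT in 1.64% (6.27%). The 95% Wilson intervals of the member shares held the share of all regions for each of these 8 motifs within 100 bp of the summit. Within 50 bp the BACH/AP-1 share was 8.20% (interval 3.55 to 17.8), beside 2.90% of all shared regions, and the EBF share was 4.92%, beside 6.47%. A match is a description of the letters and not of binding.

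Genes of the wider B-lineage programme were examined at their promoters. Of 16 further B-lineage factors, 13 had a promoter peak in all lists, among them Spi1 (7.77, 9.86, 8.24 and 9.72), Irf4 (8.73, 10.3, 7.99 and 7.47) and Ets1 (12.5, 11.6, 15.1 and 12.7). The others were Ikzf1, with a peak in both Cdk6KM/KM lists only (5.50 and 3.09), Gfi1 and Erg, each with a peak in 3 lists. Of 14 targets of the programme, 10 had a promoter peak in all lists, including Cd79a, Igll1, Vpreb1 and Il7r. Cd79b, Rag1 and Rag2 had one in 3 lists and Dntt in none.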

How the data were processed

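The data were 4 lists of ATAC-seq peaks in mm10 (GRCm38), 1 per cell line. Reads were trimmed by the authors using Trimmomatic 0.36, mapped with BWA 0.7.15, cleared of blacklisted regions, multimappers and poor mappings (SAMtools 1.3.1), and turned into peaks with MACS2 2.1.0, 1 list per library with no pooling stated. The deposited fold enrichment was read as a ratio of the pileup at the summit to the local background, with 1 added to both. It therefore lies below the plain ratio of the pileups and backgrounds printed here. The deposited -log10 p and -log10 q are those of the peak caller within a list, of which -log10 q was used to rank and filter peaks. Reads were not analysed here, and library totals are not given in the sources used here. The read ends at each summit and in its local background were solved from the deposited pair of fold enrichment and -log10 p, assuming a Poisson background. The solution matched the deposited -log10 p within a small tolerance for 100% of peaks. These solved values stand for depth here.

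Peaks overlapping by 1 bp were merged genome-wide. Genes, starts and exons were those of GENCODE vM21 in the same build. Counts per list were compared by exact permutation. Log2 fold enrichment, centred on the median of each list, was compared by limma 3.58.1 with Benjamini-Hochberg adjustment over 21012 regions. No further pseudocount was added. The fit was tested on simulated data for this comparison, where 100% of regions changed by 4 times were called. The largest difference at the 10 genes was smaller, at 0.90 on the log2 scale (Bach2 region 17). The simulation therefore does not show whether the fit could call changes of the sizes seen at these genes. Regions were named by rule: every region at an own promoter, the 2 shared regions per gene outside promoters with the best worst percentile of -log10 q, up to 3 genotype-only regions per gene and genotype, and the 5 smallest p in each direction. Bach2 region 21 and Pax5 region 3 fell outside it and were chosen after their values were seen. The 10 genes, the gene lists and the tests were chosen with earlier results of these data known. Sequences and motifs came from the RefSeq copy of GRCm38. Calculations used Python 3.11.15, pandas 2.3.3, scipy 1.17.1, pysam 0.24.0, samtools 1.23.1 and R 4.3.3.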

Additional observations from a re-analysis of the deposited data

How the results depend on the processing

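Peak lists with about 22 to 26 read ends at a median summit limit what these comparisons can detect, and 2 lines per genotype allow no p under 0.33 in a permutation. Main values were 41.8% of regions in all lists, 6 Cdk6+/+-only and 10 Cdk6KM/KM-only regions. Merging windows of 100 bp around summits lowered the shared percentage to 32.3. When each list was left out in turn, so that the other stood alone for its genotype, the shared percentage was 45.3 to 53.3, the Cdk6+/+-only count 10 to 16 and the Cdk6KM/KM-only count 13 to 23, because fewer lists had to agree. Within 50 bp of the summit, a shorter window, an E-box lay at 18.0% and an EBF motif at 4.92% of shared regions, and BACH/AP-1 at 8.20% as within 100 bp. All other alternatives for these counts (a -log10 q of at least 5, equal numbers of peaks, narrower windows) kept them within 1.5 times, and so did leaving out Tcf4 and Id2, an alternative chosen after seeing the data (4 and 9 of 116 regions). All 10 genes kept a promoter peak in every list under each alternative run.

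In the fit, 0 member regions (61 tested, 56 with the -log10 q filter) were called in either direction under the other scalings and that filter, with 5 higher and 2 lower at an unadjusted p under 0.05 without centring. When each list was left out in turn, its genotype rested on the other list alone, so the calls of those fits are not counted here. The median difference over the member regions ranged from -0.055 to 0.013 in those fits. Over the genome 13 regions were higher and 10 lower, beside 0 and 0 without centring (2327 at an unadjusted p under 0.05). There were 6 and 4 after quantile normalization, and 24 and 15 with the -log10 q filter. The cause of these changes was not tested. All 77 alternatives of the 10 named regions kept their direction, which was largely set beforehand. These regions were picked by the smallest p in the same lists. At all of them but Ebf1 region 12 the genotypes did not overlap, so leaving out a list could hardly reverse the direction. No paired analysis was possible because the genotypes share only replicate number 2, which marks separate lines.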

Other observations

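The paralogs of the 10 factors differed among themselves at promoters. Of 20 paralogs, 7 had a promoter peak in all lists and 9 in none. The 9 were Pax1, Pax2, Pax3, Pax4, Pax7, Pax8 and Pax9, factors of other tissues, with Ebf2 and Id4. Open in all lists were the forkhead genes Foxo3, Foxo4 and Foxo6, the HMG-box genes Tcf7 and Tcf7l2, the inhibitor Id1 and Bach1, whose promoter peak was among the strongest (11.2, 10.7, 11.1 and 10.6). The Tcf7 promoter, of a close relative of Lef1, had fold enrichments of 4.34, 5.98, 10.4 and 9.06, higher in both Cdk6KM/KM lists. The Foxp1 promoter, of a forkhead factor of early B-cells, had 3.92, 3.92, 7.80 and 7.60. These promoters were picked after their values were seen and were not tested.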
